A study of Homo sapiens with 6 samples.

Results

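The cholesterol and fatty acid synthesis genes are a module of 28 gene symbols. Rows were matched by symbol alone, but the symbols were chosen with earlier results of these data known. They comprise 7 enzymes of the mevalonate pathway, 10 enzymes that turn its product into sterols, 5 regulators, 1 sterol carrier and 5 enzymes of fatty acid synthesis. A row was found for 27 of the 28 symbols among 57445 genes, of which 55022 have a symbol. ACACA, acetyl-CoA carboxylase, was not analysed here because no row carried the identifier paired with it in the name table.

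Cells build cholesterol from acetyl-CoA through mevalonate, farnesyl diphosphate and squalene, and they build fatty acids from the same acetyl-CoA. The sterol regulatory element binding proteins SREBP-1 and SREBP-2, encoded by SREBF1 and SREBF2, are held in the endoplasmic reticulum by SCAP and the INSIG proteins while sterols are abundant. When sterols fall, the complex moves to the Golgi, the factors are cut free, and they activate most of the genes of both pathways together. Proliferating cancer cells draw on these pathways for membranes and for lipid anchors of proteins.

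Gene expression was measured by RNA sequencing in MDA-MB231, a human triple-negative breast cancer cell line. Cells carried a lentiviral pGIPZ vector with either a control shRNA (shCTL, 3 libraries) or an shRNA directed against ROR1, a receptor tyrosine kinase-like receptor of Wnt ligands (shRor1, 3 libraries). All cells in both groups, the controls included, had been infected and selected with puromycin at 2 µg/ml, and the shRor1 group rests on 1 hairpin. The control is an empty vector in the sample labels and a non-silencing hairpin in the paper. Its columns also carry the word DMSO in their header, which the shRor1 columns lack, and no treatment with this solvent is described. Nothing in the sources says that the libraries came from separate cultures, so p-values measure only the spread between these libraries, which may be technical. The 3 columns of a group carry no replicate number, and the first, the second and the third library are named only by their place in the table, with no order or pairing implied. Values are TPM, length-corrected transcript abundances scaled to a total of 1000000 in every library, which can be compared between genes but keeps no trace of sequencing depth.

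ROR1 itself had 15.42, 13.49 and 20.56 TPM with shCTL and 9.34, 11.93 and 14.85 TPM with shRor1. The mean was 16.5 ± 3.65 TPM (SD, n = 3) with shCTL and 12.0 ± 2.76 TPM (SD, n = 3) with shRor1, which is 73% of the control. The groups overlapped, and the exact two-sided permutation test gave p = 0.2, where 3 against 3 libraries cannot go below 0.1. On the log2(TPM + 1) scale its log2 fold change was -0.42 (95% interval -0.88 to 0.03), with an adjusted p of 0.984 from limma with Benjamini-Hochberg adjustment over all genes. It was also higher in the third library than in the other libraries of its group, by 0.48 with shCTL and 0.46 with shRor1. Without the third shCTL library its log2 fold change was -0.26 and without the first shRor1 library -0.27. At the RNA level, the comparison of the groups thus rests on a lower mean of the target that did not pass this test. The paper reports a stable knockdown in these cells with a western blot of ROR1 protein, which the RNA values do not measure. Of the markers of the line, VIM (vimentin) lay between 2399 and 2920 TPM, and ESR1 and PGR, the estrogen and progesterone receptors, were at 0.10 to 0.21 and at 0 to 0.01 TPM. Luminal markers summed to between 997 and 1258 TPM, nearly all of it from keratins, and to between 31.5 and 44.4 TPM without them. The third library of each group stood apart from the other libraries of its group. The leading component of the residuals over 16554 genes held 40.8% of the variance within groups, with scores of 0.55 and 0.60 in the third shCTL and shRor1 libraries and between -0.34 and -0.21 in the other 4.

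All 27 genes were expressed at more than 4 TPM in each library, and all passed the requirement of at least 1 TPM in at least 3 libraries. FDPS, which makes farnesyl diphosphate, was the most abundant, at 320 ± 64.2 TPM with shCTL and 326 ± 58.4 TPM with shRor1 (SD, n = 3 for each, as in all means of this kind). SCD, the desaturase that makes oleate, followed with 262 ± 80.0 and 304 ± 99.9 TPM, and ACLY, which supplies cytosolic acetyl-CoA, with 224 ± 23.5 and 220 ± 16.2 TPM. The neighbours FDPS and SCD, and SCD and ACLY, overlapped in their ranges and cannot be ordered beyond their spread. FASN, the fatty acid synthase, and FDFT1, the squalene synthase, came next at 166 ± 52.2 and 158 ± 56.2 TPM with shCTL, again within their spread. At the low end stood SQLE, the squalene epoxidase, at 17.4 ± 4.86 and 19.7 ± 5.98 TPM, and TM7SF2, a sterol C14 reductase, at 6.35 ± 2.51 and 8.74 ± 3.62 TPM. In the GRCh37 annotation, HMGCS1 (ENSG00000112972.10) spans 43287572 to 43313614 on chromosome 5, TM7SF2 (ENSG00000149809.10) spans 64879317 to 64883856 on chromosome 11 and INSIG1 (ENSG00000186480.8) spans 155089486 to 155101945 on chromosome 7, and all 3 are protein-coding genes whose values cover the whole gene. Among the regulators, SREBF1 and SREBF2 were close to each other, at 72.7 ± 21.2 and 62.0 ± 13.3 TPM with shCTL. INSIG1 was several times more abundant than INSIG2, at 65.6 ± 25.7 against 18.7 ± 3.37 TPM with shCTL and 76.1 ± 29.8 against 23.0 ± 6.76 TPM with shRor1.

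**Figure D1:**
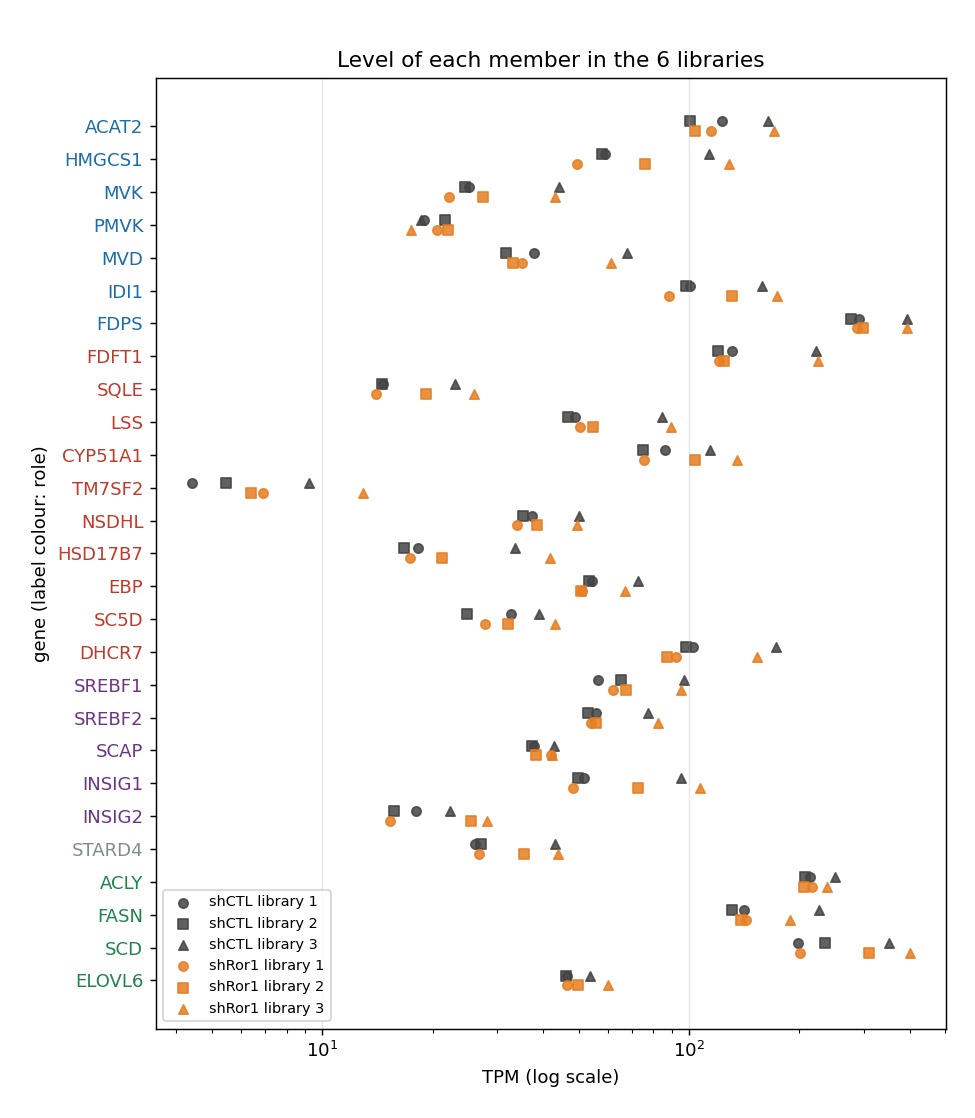
Level of the 27 genes in TPM (log axis) in each of the 6 libraries, ordered by role, which the colour of the gene name marks; each point is 1 library, in dark grey for shCTL and in orange for shRor1, with circles, squares and triangles for the first, the second and the third library. The third libraries lie to the right of the other libraries of their group for every gene except PMVK, and the colours overlap for all 27 genes.

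The promoters of 24 of the 28 listed genes were found in a RefSeq promoter table of the assembly GRCh38.p14, which holds 250 bases before and 50 after each gene start. They are given as background, because the promoters of these genes are the places where SREBPs and their partner NF-Y act. All words were searched on both strands. The core of the sterol regulatory element, searched as TCACNCCAC, was found in 1 of the 24 promoters, that of SREBF2, and in 379 of 27305 promoters (1.39%). CCAAT, the word bound by NF-Y, occurred in 18 of the 24 (75%) against 39.7% of all promoters. The 27305 promoters include those of genes not expressed in these cells. Among the genes tested here that have a promoter entry, 4597 had CCAAT and 6008 did not. The GC box GGGCGG occurred in 23 (95.8%, against 48.3%) and the E-box CACGTG in 4 (16.7%, against 8.77%). A match is a description of letters, and a missing match says nothing about binding. The 200 bases before the start are printed for SREBF2, which holds the core element, and for HMGCS1 and MVK. HMGCS1 and MVK hold 2 and 4 CCAAT words there. The bases are also printed for PMVK, chosen after its values were seen, which is 1 of 6 measured genes without the word. They run 5′ to 3′ along the strand of the gene, and capitals mark the core of the sterol regulatory element and CCAAT or its reverse complement ATTGG. The windows are chr22:41832905-41833104 on the plus strand for SREBF2, chr5:43313413-43313612 on the minus strand for HMGCS1, chr12:109573594-109573793 on the plus strand for MVK and chr1:154936720-154936919 on the minus strand for PMVK.
SREBF2: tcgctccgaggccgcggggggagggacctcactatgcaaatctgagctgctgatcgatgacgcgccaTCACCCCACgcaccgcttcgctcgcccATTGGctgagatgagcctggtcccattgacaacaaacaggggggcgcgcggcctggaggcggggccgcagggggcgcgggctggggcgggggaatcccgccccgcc
HMGCS1: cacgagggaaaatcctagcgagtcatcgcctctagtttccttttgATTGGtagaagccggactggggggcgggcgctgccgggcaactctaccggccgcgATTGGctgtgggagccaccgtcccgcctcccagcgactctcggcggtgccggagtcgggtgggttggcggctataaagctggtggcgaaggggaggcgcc
MVK: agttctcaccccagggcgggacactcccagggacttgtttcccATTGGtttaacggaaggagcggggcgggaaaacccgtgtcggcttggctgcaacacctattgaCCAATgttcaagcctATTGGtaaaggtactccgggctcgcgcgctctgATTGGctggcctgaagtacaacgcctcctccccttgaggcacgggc
PMVK: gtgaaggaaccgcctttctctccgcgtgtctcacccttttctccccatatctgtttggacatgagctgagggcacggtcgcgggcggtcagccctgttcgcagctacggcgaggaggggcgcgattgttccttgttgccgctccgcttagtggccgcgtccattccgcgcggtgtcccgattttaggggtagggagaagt
In SREBF2 the element spans bases 133 to 125 before the start and the CCAAT word bases 106 to 102. In HMGCS1 the CCAAT words lie at bases 155 to 151 and 100 to 96 before the start.

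The first comparison asked whether the genes differed between shRor1 and shCTL. None of the 27 passed an adjusted p of 0.05 in limma, where 0% of the 16554 genes tested did, and none had an unadjusted p below 0.05, against 2.85% of all genes (2.31% with higher and 0.544% with lower values in shRor1). For none of the 27 were the groups free of overlap, against 7.78% of all genes. The 27 varied more within groups than most genes, with a median standard error of 0.227 against 0.129 for all genes tested. A larger spread makes overlap and a p above 0.05 more likely, so these shares do not show that the 27 responded less. The median log2 fold change of the 27 was 0.06, next to 0.05 for all genes tested, and 18 of the 27 lay above 0, next to 67% of all genes. The adjusted p of the 27 ran from 0.984 to 0.999 and the smallest unadjusted p was 0.23.

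The 7 mevalonate pathway genes had a median log2 fold change of 0.02, with values from -0.06 for MVD, the diphosphomevalonate decarboxylase, to 0.12 for IDI1, the isopentenyl diphosphate isomerase. ACAT2, the acetoacetyl-CoA thiolase at the entry of the pathway, had 123.19, 100.89 and 164.12 TPM with shCTL and 114.72, 104.03 and 170.54 TPM with shRor1. The first and the second shRor1 values of ACAT2 lay among those of the control and the third above them, with means of 129 ± 32.1 and 130 ± 35.7 TPM. The 10 sterol genes had a median of 0.10 and held both ends of the module, DHCR7 at -0.16 and TM7SF2 at 0.40. DHCR7, the last reductase before cholesterol, had 102.63, 98.11 and 172.69 TPM with shCTL and 92.25, 87.37 and 152.96 TPM with shRor1 (95% interval of the log2 fold change -0.80 to 0.47). Within the first and second libraries of DHCR7 both shRor1 values were below both controls, while the third shRor1 library was above them. TM7SF2 had 4.41, 5.46 and 9.18 TPM with shCTL and 6.89, 6.41 and 12.91 TPM with shRor1 (95% interval -0.31 to 1.11). Both of the low shRor1 libraries of TM7SF2 were above the low controls but below the third control. TM7SF2 shares 18 of its 3408 annotated exon bases with VPS51 on the same strand, which was at a mean of 74.0 TPM.

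All 5 regulators lay above 0, next to 67% of all genes, with values from 0.04 for SREBF2 to 0.25 for INSIG2 and a median of 0.06. SREBF2 had 55.84, 53.00 and 77.27 TPM with shCTL and 54.01, 55.92 and 82.21 TPM with shRor1. SREBF1 had 56.38, 65.15 and 96.67 TPM with shCTL and 62.21, 67.19 and 95.15 TPM with shRor1. For both genes the first and second libraries of the groups lay together and the third libraries lay together. INSIG2 had 18.06, 15.72 and 22.37 TPM with shCTL and 15.33, 25.52 and 28.13 TPM with shRor1, with 1 shRor1 library below all controls and the other two above them. SCAP, the escort of the SREBPs, was the steadiest regulator, at 37.83, 37.26 and 42.75 TPM with shCTL and 42.08, 38.38 and 42.42 TPM with shRor1 (log2 fold change 0.06, 95% interval -0.14 to 0.26). The 4 fatty acid genes had a median of 0.03, with FASN at -0.05, ACLY at -0.02, the elongase ELOVL6 at 0.09 and SCD at 0.20. STARD4, a carrier of cholesterol between membranes, had a log2 fold change of 0.15.

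The intervals were wide. The median standard error of the 27 log2 fold changes was 0.227 (range 0.0863 to 0.372), against a median of 0.129 for all genes tested, while the median absolute log2 fold change was 0.0907 for the 27 and 0.0913 for all. The intervals reached up to 1.11 for TM7SF2 and down to -0.80 for MVD, so that for such genes a difference of moderate size was not detectable with these libraries. They were narrower for some genes, such as SCAP (-0.14 to 0.26) and ACLY (-0.24 to 0.20). Leaving out single libraries moved the median of the 27 from 0.06 to -0.11 without the third shRor1 library and to 0.26 without the third shCTL library. In bulk RNA, fewer cells that express a gene and less RNA per cell cannot be told apart.

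**Figure D2:**
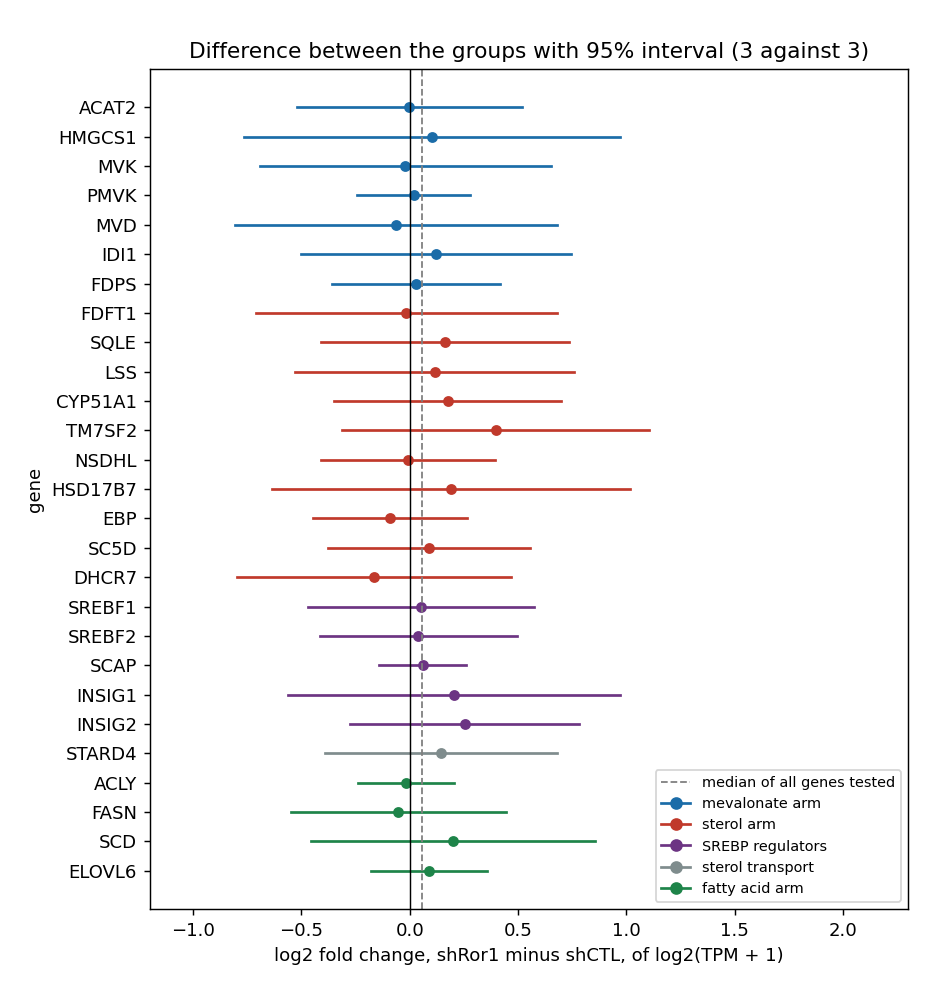
Log2 fold change of shRor1 against shCTL on the log2(TPM + 1) scale for the 27 genes, with 95% intervals from limma (n = 3 libraries per group), coloured by role. Every interval includes 0, and the values run from -0.16 for DHCR7 to 0.40 for TM7SF2.

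Larger differences in these genes lay within the groups. In both groups 26 of the 27 genes were highest in the third library, against 33.6% of all genes for both groups at once, 50.7% for shCTL and 46.2% for shRor1. The difference between the third library and the mean of the other two on the log2(TPM + 1) scale had a median of 0.67 (1.59-fold) in shCTL and 0.60 (1.52-fold) in shRor1, next to 0.07 (1.05-fold) and 0.08 (1.06-fold) over all genes. Together the 27 genes made up 2032, 1968 and 3041 TPM with shCTL and 1965, 2230 and 3117 TPM with shRor1. Each such difference sets 1 library against 2, so no test was made, and what set the third libraries apart is not given in the sources.

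HMGCS1, the HMG-CoA synthase, which commits acetyl-CoA to the mevalonate pathway, had 59.05, 57.92 and 113.69 TPM with shCTL and 49.47, 75.93 and 128.34 TPM with shRor1, a difference of 0.95 (1.93-fold) and 1.05 (2.08-fold) for the third library. MVD had 37.86, 31.65 and 67.97 TPM with shCTL and 35.13, 33.10 and 61.37 TPM with shRor1. MVK, the mevalonate kinase, had 25.21, 24.56 and 44.13 TPM with shCTL and 22.11, 27.41 and 43.18 TPM with shRor1. In each of these 3 genes the third libraries of both groups lay together, clear of the other 4 values. FDPS differed less, by 0.47 and 0.43, with 290.22, 276.26 and 393.79 TPM with shCTL and 287.25, 297.86 and 393.37 TPM with shRor1. PMVK, the phosphomevalonate kinase that acts between MVK and MVD, was the exception, with 18.89, 21.63 and 18.64 TPM with shCTL and 20.57, 22.01 and 17.50 TPM with shRor1. The third library was the lowest in both groups, by -0.11 and -0.27.

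In the sterol branch all 10 genes were highest in the third library of both groups. FDFT1, the first enzyme committed to sterols, had 131.27, 119.76 and 222.38 TPM with shCTL and 121.15, 124.31 and 224.97 TPM with shRor1. LSS, which closes the sterol rings, had 49.03, 46.73 and 84.48 TPM with shCTL and 50.34, 54.87 and 89.39 TPM with shRor1. The low and high values of FDFT1 and LSS were nearly the same in the 2 groups. HSD17B7, a 3-ketosterol reductase, had 18.24, 16.76 and 33.52 TPM with shCTL and 17.40, 21.24 and 41.79 TPM with shRor1, a difference of 0.90 and 1.08 that was the widest in the branch. Its pseudogene HSD17B7P2, a near copy between which reads may be divided, was at 2.97, 3.05 and 5.74 TPM and 3.46, 4.14 and 6.40 TPM. The 16 other pseudogenes of members in the table stayed at or below 0.49 TPM in each library. EBP, the sterol isomerase, and NSDHL, a sterol dehydrogenase, had the lowest values by the smaller of the differences in the groups, at 0.42 and 0.39 for EBP and 0.46 and 0.44 for NSDHL.

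Among the regulators, INSIG1, itself a target of the SREBPs, had 51.64, 49.89 and 95.17 TPM with shCTL and 48.20, 72.61 and 107.51 TPM with shRor1, a difference of 0.89 and 0.85. SREBF1 differed by 0.66 and 0.55, SREBF2 by 0.50 and 0.57 and INSIG2 by 0.39 and 0.49. SCAP differed by 0.18 and 0.08. In the fatty acid branch SCD had 198.96, 234.55 and 351.87 TPM with shCTL and 201.04, 309.28 and 400.55 TPM with shRor1, a difference of 0.70 and 0.68. FASN had 140.99, 131.26 and 226.12 TPM with shCTL and 143.31, 138.86 and 188.19 TPM with shRor1, so that its difference was 0.73 in shCTL and 0.41 in shRor1. ACLY and ELOVL6 varied little, with differences of 0.25 and 0.17 for ACLY and 0.21 and 0.32 for ELOVL6.

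**Figure D3:**
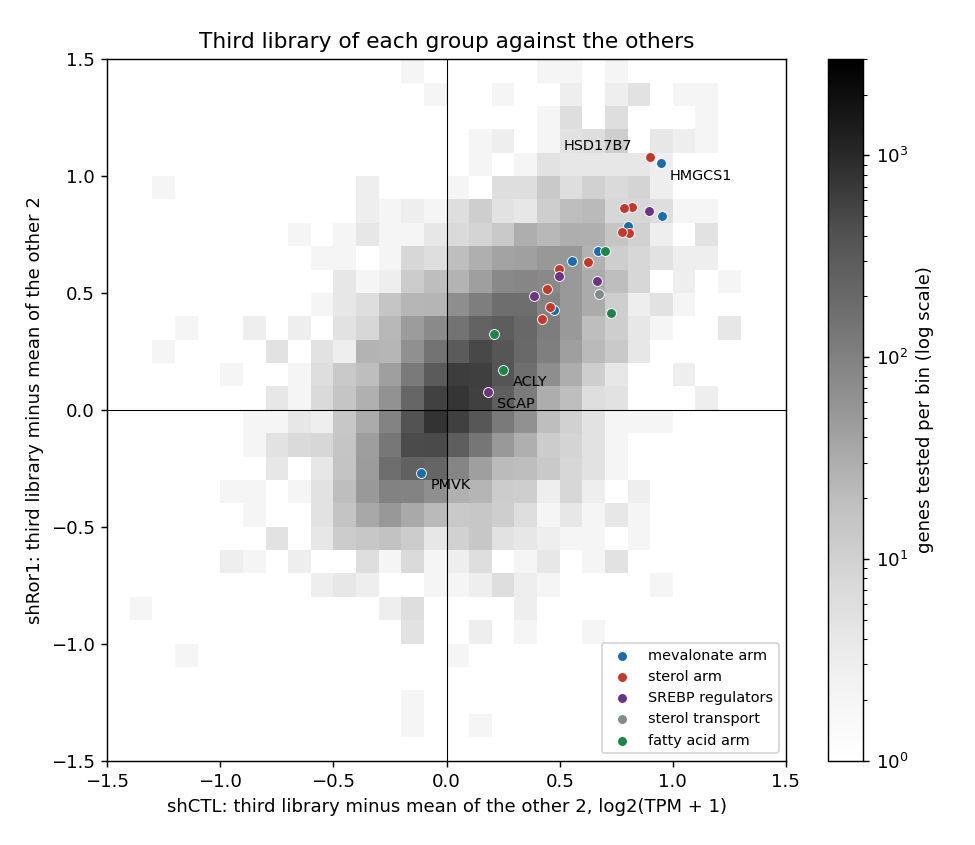
Difference between the third library and the mean of the other libraries of its group, on the log2(TPM + 1) scale, in shCTL (x axis) and in shRor1 (y axis); coloured points are the 27 genes by role, and the grey shading counts the genes tested between -1.5 and 1.5 (93 lie outside). Of the 27, PMVK alone lies below 0 on both axes, while HMGCS1 and HSD17B7 lie farthest to the upper right.

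The order of the genes by this difference was alike in the groups. Pearson's r between the differences in shCTL and in shRor1 was 0.929 over the 27 genes and 0.399 over all genes tested, as a description over genes that share the same 6 libraries. Over the other lists, described below, r ran from 0.554 for the liver X receptor list to 0.93 for the 6 mesenchymal markers. For the 12 further sterol genes it was 0.925, so a high r was not particular to the 27. The smaller of the differences exceeded 0.4 for 21 of the 27 genes, against 5.67% of all genes. Ranked by it among 16554 genes, HMGCS1 stood at 37, HSD17B7 at 47, INSIG1 at 62, MVD at 75 and FDFT1 at 77, and 7 of the 27 were among the first 100. The 6 at or below 0.4 were PMVK, SCAP, ACLY, ELOVL6, INSIG2 and EBP, of which INSIG2 and EBP, at 0.39 each, stood just outside and FASN and FDPS, at 0.41 and 0.43, just inside. For the 17 measured genes with CCAAT in the promoter the median of the smaller difference was 0.681, and for the 6 without it (PMVK, CYP51A1, SREBF1, SCAP, INSIG2 and ELOVL6) it was 0.299. Over all genes the medians were 0.00212 with and 0.011 without the word. The sets overlapped, with SREBF1 at 0.55 without the word and ACLY at 0.17 with it. ACAT2, FDFT1, SQLE and FASN had no promoter entry and are in neither set. A role of the word in these differences was not tested.

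The third libraries differed in other ways at the same time. Luminal markers summed to 1258 and 1243 TPM in the third shCTL and shRor1 libraries, against 997 to 1120 TPM in the other 4. The 6 mesenchymal markers summed to 4278 and 4318 TPM in them, against 4525 to 4793 TPM, with VIM as the larger part of each sum. Single mesenchymal markers differed in both directions, from -0.31 to 0.30 in shCTL and from -0.47 to 0.27 in shRor1. So did the 10 luminal markers tested, from -0.28 to 0.50 in shCTL and from -0.82 to 0.61 in shRor1. Without keratins, the luminal sum of 33.4 and 37.9 TPM in the third libraries lay within the range of the rest, and ESR1 and PGR were near 0 in all 6. The part of these differences in the levels of the synthesis genes was not tested.

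A second pattern was seen within shRor1. The second shRor1 library exceeded the first by more than 0.4 on the log2(TPM + 1) scale for 7 of the 27 genes (7.95% of all genes), and the second shCTL library exceeded the first by as much for 0 of the 27 (3.98% of all genes). The 7 were INSIG2 at 0.70, SCD at 0.62, HMGCS1 at 0.61, INSIG1 at 0.58, IDI1 at 0.57, CYP51A1 at 0.46 and SQLE at 0.42, with STARD4 at 0.39 just outside. IDI1 had 88.33, 131.47 and 173.41 TPM with shRor1 and 100.52, 97.89 and 158.27 TPM with shCTL. CYP51A1, the lanosterol demethylase, had 75.64, 104.13 and 135.35 TPM with shRor1 and 86.33, 75.11 and 113.90 TPM with shCTL. SQLE had 14.00, 19.13 and 25.93 TPM with shRor1 and 14.61, 14.51 and 22.98 TPM with shCTL. In these genes the second shRor1 library lay between the first and the third, whereas the first and second shCTL libraries lay near each other. Other genes that were high in the third libraries showed no such step, among them FDFT1 at 0.04, FDPS at 0.05, FASN at -0.05, DHCR7 at -0.08, MVD at -0.08 and ACAT2 at -0.14. The median over the 27 was 0.11 in shRor1 and -0.05 in shCTL, next to 0.01 and -0.03 over all genes. Each of these values compares 1 library with 1 library and has no replicate check.

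**Figure D4:**
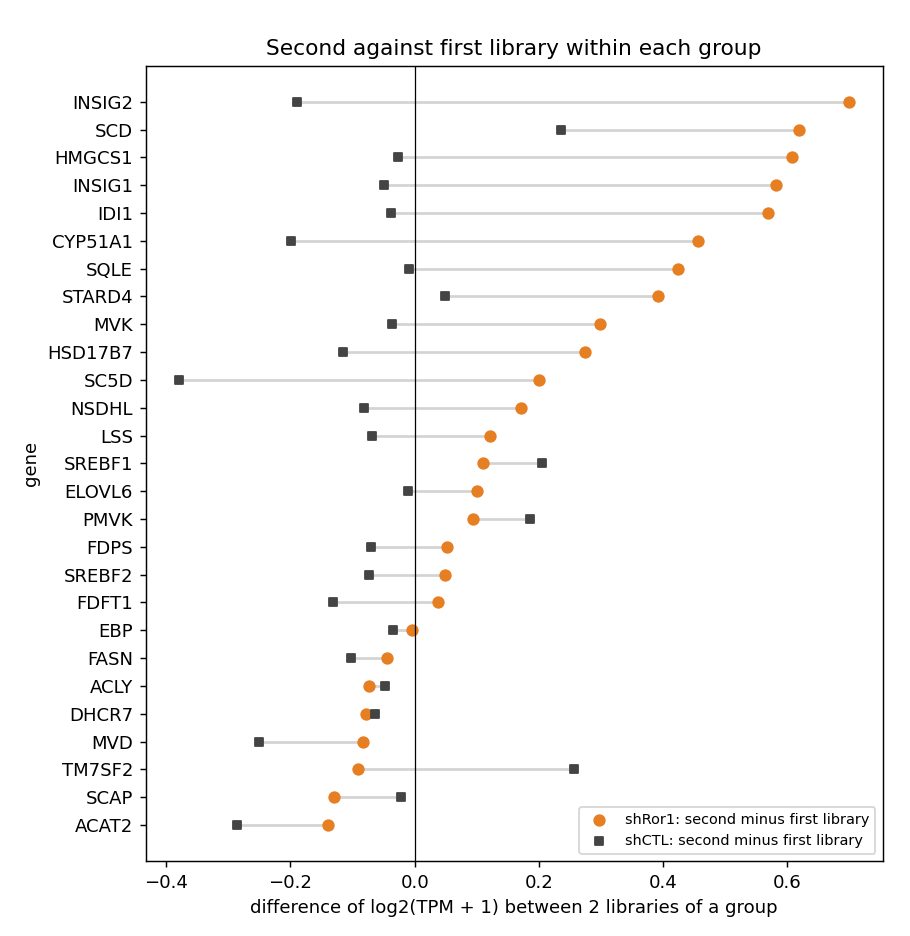
Difference between the second and the first library of each group for the 27 genes, on the log2(TPM + 1) scale, in dark grey for shCTL and in orange for shRor1. The shRor1 points of INSIG2, SCD, HMGCS1, INSIG1, IDI1, CYP51A1 and SQLE lie above 0.4, and no shCTL point does.

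Without the third library of each group, a comparison chosen after the data were seen, the median log2 fold change of the 27 was 0.07 and none passed an adjusted p of 0.05 in limma. TM7SF2 alone then had an unadjusted p below 0.05, at a log2 fold change of 0.37 (unadjusted p = 0.0459 from limma). With the leading component of the residuals as a covariate, also chosen after the data were seen, TM7SF2 at 0.40 (unadjusted p = 0.0134) and DHCR7 at -0.16 (unadjusted p = 0.0242) were past that mark in limma, and again none passed after adjustment. ROR1 was at -0.42 in both of these fits, with unadjusted p-values of 0.0353 and 0.00561 from limma and none past adjustment. The component comes from the residuals of the same fit, so these p-values are too small.

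The genes around the module were examined by the same fit, in lists chosen with earlier results of these data known. None of the genes in these lists passed an adjusted p of 0.05 or had an unadjusted p below 0.05 for shRor1 against shCTL in limma. The counts above 0 that follow stand next to 67% of all genes tested, whose median log2 fold change was 0.05. Of 12 further sterol genes that were tested, 10 lay above 0, and NPC2, which exports cholesterol from lysosomes, had the smallest p, at a log2 fold change of 0.20 (standard error 0.14, unadjusted p = 0.186). The 9 genes that process the SREBPs had a median log2 fold change of 0.05, and 6 of them lay above 0. Of 23 further fatty acid genes, ACSL4, which activates long polyunsaturated fatty acids, had the smallest p, with 75.74, 72.86 and 74.37 TPM with shCTL and 79.39, 85.57 and 82.78 TPM with shRor1. Its groups did not overlap, at a log2 fold change of 0.15 (standard error 0.07, adjusted p = 0.984), and the third libraries lay among the rest. Of the 23 genes, 2 were higher without overlap in shRor1, ACSL4 included, and 1 was lower. Over all genes tested, 7.78% had groups without overlap. The 7 genes of the liver X receptor list, which are both receptors (NR1H2 and NR1H3) and 5 of their targets, all lay above 0, with a median of 0.11 and MYLIP, a ubiquitin ligase of lipoprotein receptors, having the smallest unadjusted p at 0.358. Of 15 genes of fatty acid oxidation, ACADM, a medium-chain dehydrogenase, had a log2 fold change of 0.12 (unadjusted p = 0.283).

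These lists shared the third library difference in part. Its median in shCTL and shRor1 was 0.17 and 0.30 for the further sterol genes, 0.08 and 0.12 for the further fatty acid genes, 0.22 and 0.51 for the liver X receptor list and 0.10 and 0.24 for fatty acid oxidation. For the SREBP processing genes it was 0.05 and 0.03, below the 0.07 and 0.08 of all genes. Some enzymes outside the module had differences like those of its members, as chosen after their values were seen: FADS2, a fatty acid desaturase, at 0.97 and 0.87, MSMO1, a sterol methyl oxidase, at 0.75 and 0.86, and ACSS2, which makes acetyl-CoA from acetate, at 0.72 and 1.13. MSMO1 and ACSS2 were also higher in the second than in the first shRor1 library, by 0.55 and 0.57.

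**Figure D5:**
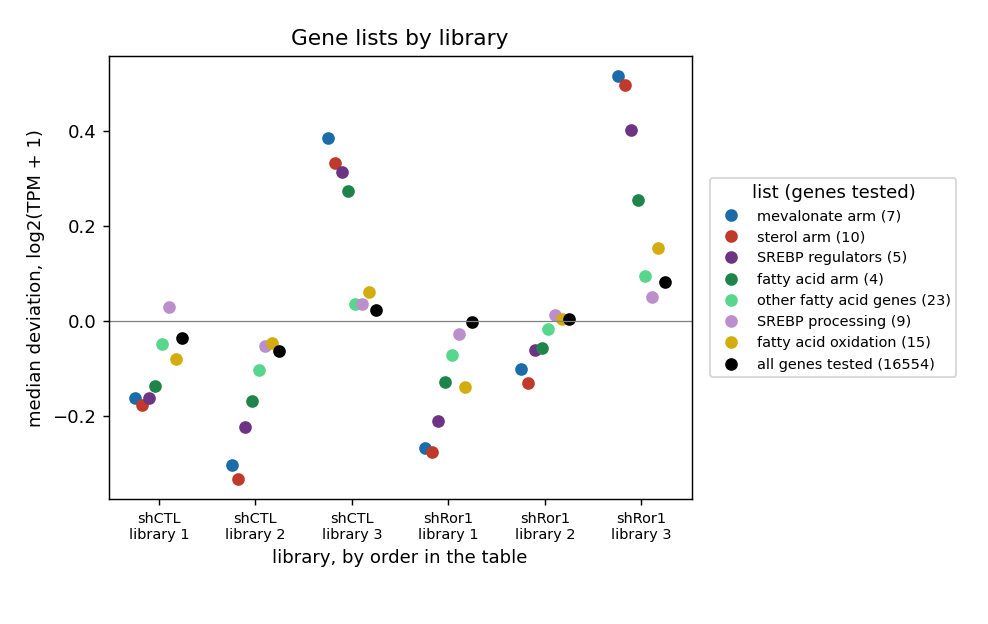
Median deviation of the gene lists shown, and of all genes tested, from the mean of all 6 libraries (y axis, log2(TPM + 1) scale) in each library (x axis). Colours mark the list, with the number of genes tested in brackets. Not shown are the sterol carrier, the marker lists, the further sterol genes and the liver X receptor list. The further sterol genes and the liver X receptor list reached 0.10 and 0.13 in the third shCTL library and 0.22 and 0.36 in the third shRor1 library. The mevalonate, sterol and regulator genes reach 0.31 to 0.38 in the third shCTL library and 0.40 to 0.51 in the third shRor1 library and lie below 0 in the other 4, while all genes tested lie between -0.06 and 0.08.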

How the data were processed

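RNA sequencing of MDA-MB231 cells with shCTL (3 libraries) and shRor1 (3 libraries) was analysed. Per the labels and the paper, libraries were made from 1000 ng of total RNA (polyA RNA in the labels) with a stranded kit and sequenced as single reads of 50 bases. The submitters' processing notes name CASAVA 1.8.2, FastQC 0.10.0, STAR, RSEM 1.2.5 and edgeR, and reads were mapped by the authors to GRCh37 with Ensembl 73. Whether counting used the strand is not given in the sources used here, so ACAT2, MVK, CYP51A1, SREBF1 and FDPS may share reads with the overlapping opposite-strand genes TCP1, MMAB, AKAP9, RAI1 and RUSC1-AS1.

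The deposited values are TPM with 2 decimals, although the table is called one of expected counts. Each column sums to about 1000000. The read totals in the paper could not be tied to single columns, and TPM keep no counts, so the count test of the authors was not used. The fit used the 16554 of 57445 genes that reached 1 TPM in 3 or more libraries. log2(TPM + 1) was fitted in limma 3.58.1 (R 4.3.3) with the group as the only term and a mean-variance trend, with Benjamini-Hochberg adjustment over all genes at 0.05. Fold changes on this scale understate those of genes with few TPM. The fit was checked on simulated data with independent noise for each gene, which does not cover a component shared between genes. Members and lists were chosen with earlier results of these data known. The genes named were all members, ROR1, pseudogenes of members, and from each other list the gene with the smallest p, or all below 0.05, except that the gene so chosen from 1 list is not reported here. Other genes are marked as chosen after their values were seen, or named as overlapping partners or markers of the line. Symbols came from a gene name table and GENCODE 44 on GRCh37, and promoters from RefSeq on GRCh38.p14. Alternatives were a pseudocount of 0.1, no filter, a mean of at least 5 TPM, quantile normalization, median ratio scaling, no variance trend, pseudogenes summed with members, each library left out in turn and, chosen after seeing the data, omission of the third libraries and a residual component as covariate.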

Additional observations from a re-analysis of the deposited data

How the results depend on the processing

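No paired analysis was possible because no replicate number is attached to any of the columns. The number of synthesis genes with an adjusted p below 0.05 was 0 in limma and stayed 0 in all 15 alternatives, with adjusted p between 0.44 and 1. The number with an unadjusted p below 0.05 was 0, became 1 without the third library of each group and 2 with the residual component as a covariate, and ran from 0 to 1 when single libraries were left out, with 1 without the first shRor1 library, where the count over all genes went from 472 to 1720. The median log2 fold change of 0.06 ran from -0.11 to 0.26 when single libraries were left out. It was 0.001 under median ratio scaling and 0.043 under quantile normalization, where the median of all genes moved from 0.05 to 0.001. Median ratio scaling turned the sign of PMVK (-0.040), FDPS (-0.030), SREBF1 (-0.0066) and SREBF2 (-0.021), and quantile normalization that of PMVK (-0.039). Without the third libraries ACLY (0.0083) and FASN (0.052) turned above 0. When single libraries were left out, 24 of the 27 log2 fold changes turned sign at least once, and TM7SF2, INSIG2 and SCAP did not. The ranges of the 24 were ACAT2 from -0.21 to 0.18, ACLY from -0.076 to 0.065, CYP51A1 from -0.026 to 0.39, DHCR7 from -0.42 to 0.10, EBP from -0.22 to 0.049, ELOVL6 from -0.019 to 0.17, FASN from -0.20 to 0.19, FDFT1 from -0.30 to 0.26, FDPS from -0.11 to 0.19, HMGCS1 from -0.25 to 0.43, HSD17B7 from -0.17 to 0.49, IDI1 from -0.10 to 0.38, INSIG1 from -0.08 to 0.50, LSS from -0.14 to 0.38, MVD from -0.34 to 0.26, MVK from -0.28 to 0.25, NSDHL from -0.15 to 0.14, PMVK from -0.05 to 0.11, SC5D from -0.081 to 0.24, SCD from -0.028 to 0.47, SQLE from -0.049 to 0.37, SREBF1 from -0.13 to 0.28, SREBF2 from -0.15 to 0.20 and STARD4 from -0.02 to 0.37. TPM give no depth and no counting error for a single value, and 3 libraries per group limit the precision of each comparison.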

Other observations

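Among 9112 genes with a mean of at least 10 TPM, genes were chosen here after their values were seen. Of the 30 with the largest smaller difference between the third library and the others, 5 were members of the module. The module had 26 members at that level. FADS2, named above and not a member, was also among the 30. ITGB4 and FN1 stood first. ITGB4, the integrin beta-4 chain, had 20.8, 27.1 and 69.7 TPM with shCTL and 23.8, 36.4 and 117 TPM with shRor1. FN1, fibronectin, had 15.6, 20.8 and 43.9 TPM and 17.0, 39.3 and 76.9 TPM. In the opposite direction, MMP1, an interstitial collagenase, differed by -1.07 and -0.91 and TRIM16, a ubiquitin ligase, by -1.13 and -1.09 on the log2(TPM + 1) scale. No test was made of these differences, each of which sets 1 library against 2.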
